A study of Mus musculus with 8 samples.

Results

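The genes that encode the proteins of the cytosolic ribosome were compared between ventricles of 4 mouse samples heterozygous for a deletion in Pkp2 (HET) and 4 wild-type samples (WT). A row of the count table was taken as a member when its symbol was Rps or Rpl followed by a number, with or without an ending that marks a variant or paralogue (a, al, l, l1 or x), or was Rplp0, Rplp1, Rplp2 or Rpsa. The rule matched 85 symbols, 3 of these were annotated as pseudogenes and left out (Rpl6l, Rps12l1 and Rps4l), and 82 members remained of 38293 rows. Of the members, 31 belong to the small (40S) subunit and 51 to the large (60S) subunit, and 80 passed the filter on low counts. The HET samples carry 1 altered and 1 normal Pkp2 allele (PKP2 c.1755delA/WT in the series title, while the genotype label leaves out the word for a deletion), and the controls are WT at that locus. All 8 samples were mixed left and right ventricle of mice aged 8 weeks, and no group received a treatment. Strain and sex are not given in the sources used here. Whether each sample is a separate animal is not stated in the labels, so every p-value refers to the spread between samples, which may be technical.

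Ribosomal proteins assemble with ribosomal RNA into the subunits that read messenger RNA and join amino acids. Their genes are expressed in all cells, and their transcripts usually start at a run of pyrimidines, the terminal oligopyrimidine (TOP) tract, through which growth signals passing through mTORC1 control their translation together. Several members have paralogues. Rpl3l is the paralogue of Rpl3 that is made in heart and skeletal muscle, while Rpl10l and Rpl39l are known from the testis.

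The start of a gene of this family is given here for 3 members with a long pyrimidine run and for the members Rps28 and Rpl3l, which are described further on. Each sequence runs from 25 bases before the RefSeq transcription start to 20 bases from it (RefSeq, build GRCm38.p6), and the capitals mark the longest unbroken run of C and T in a window of 25 bases on either side of the start. Rpl4 (chr9:64173362-64173406, plus strand), Rpl15 (chr14:18270967-18271011, minus strand), Rpl22l1 (chr3:28805483-28805527, plus strand), Rps28 (chr17:33824543-33824587, minus strand) and Rpl3l (chr17:24727801-24727845, plus strand) read as follows.
Rpl4: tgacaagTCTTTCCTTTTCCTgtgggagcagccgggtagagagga
Rpl15: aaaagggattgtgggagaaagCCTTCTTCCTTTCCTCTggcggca
Rpl22l1: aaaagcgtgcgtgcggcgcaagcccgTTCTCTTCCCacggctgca
Rps28: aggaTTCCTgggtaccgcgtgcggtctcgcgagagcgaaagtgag
Rpl3l: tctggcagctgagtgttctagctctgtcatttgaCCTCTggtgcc
The runs are 14 bases in Rpl4, 17 in Rpl15, 10 in Rpl22l1, 5 in Rps28 and 5 in Rpl3l. Of the 82 members, 62 had an entry in the RefSeq table. Their median run was 7 bases, against 5 over all 27025 genes with an entry, and 21 members (33.9%) had a run of 10 or more, against 2453 genes (9.08%). The annotated first base was C in 20 members (32.3%) and in 16.2% of all genes. These counts describe letters in a window and do not show where transcripts started in these samples.

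Total counts were 32397302 to 38611008 in HET and 38510257 to 41234883 in WT. Pkp2 itself was at 88.2 to 105.6 CPM (the count divided by the TMM-scaled library size, times 1e6) in HET and at 148.5 to 169.1 CPM in WT, which matched the labels (log2 fold change -0.74, adjusted p = 0.00376 by the edgeR quasi-likelihood test, Benjamini-Hochberg adjusted). The tissue label was matched by cardiomyocyte markers, which summed to 61480 to 69820 CPM, whereas lymphocyte markers summed to 1.28 to 2.51 CPM. The first 4 digits of the sample titles were shared by some samples (3 HET and 1 WT in a first title set, 1 HET and 2 WT in a second, and 1 WT with digits of its own), and the labels do not say what the digits mark.

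No ribosomal protein gene passed the test. Most had slightly lower means in HET, but most had positive values when the title digits were a covariate. Of the 80 members tested, 0 were called lower and 0 higher when the threshold for the adjusted p was 0.05 (edgeR quasi-likelihood test, Benjamini-Hochberg adjustment across 14567 genes), where 0.00686% of all genes were called lower (1 gene, Pkp2) and 0% higher. DESeq2 and limma-voom called 0 members as well, and the smallest adjusted p by edgeR was 0.77. At an unadjusted p under 0.05, edgeR had 2 members lower (Rpl3 and Rps28, 2.50% against 3.63% of all genes) and 1 higher (Rpl3l, 1.25% against 2.75% of all genes). The HET and WT libraries did not overlap for 1 member with a lower HET mean, Rpl3 (1.25% against 2.08% of all genes), and for 1 with a higher mean, Rpl3l (against 1.70%). Each of these shares was below that of all genes, but not each was below that of abundant genes. Of the 8474 genes at 10 CPM or more, 2.05% were lower at an unadjusted p under 0.05 by edgeR. Of the same genes, 1.29% were lower without overlap. In the higher direction the counts were 322 and 198 of 8474.

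The log2 fold change of HET over WT was negative in 67 of 80 members (83.75%), with a median of -0.03 and a middle range of -0.06 to -0.01. Over all genes tested 51.48% were negative, with a median of -0.00, and over the 8474 genes at 10 CPM or more 43.12% were negative, with a median of 0.01. In the small subunit 28 of 31 members were negative (median -0.04, from -0.16 for Rps28 to 0.04) and in the large subunit 39 of 49 (median -0.03, from -0.22 for Rplp0 to 0.30 for Rpl29). The 95% interval lay within -0.2 and 0.2 for 61 of the 80 members. This held for 3823 of all 14567 genes and for 3778 of the 8474 genes at 10 CPM or more. The median biological coefficient of variation of members was 8.6%, against 11.24% over all genes and 9.13% over the genes at 10 CPM or more. The sign count depended on single libraries. It was 49 without WT replicate 2, 53 without HET replicate 3 and 72 without WT replicate 1, with medians of -0.02, -0.02 and -0.06. With the title digits as covariate, a fit in which the library with digits of its own (WT replicate 2) adds nothing to the comparison, 24 members were negative and the median was 0.01. Within the first title set the median was 0.04 with 17 of 80 members negative, and within the second it was -0.02 with 51 negative, each resting on a group of 1 library. With library sizes left unscaled 76 were negative, but the median of all genes also moved to -0.05, and the members' median minus that of all genes was -0.03 with and without scaling.

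**Figure D1:**
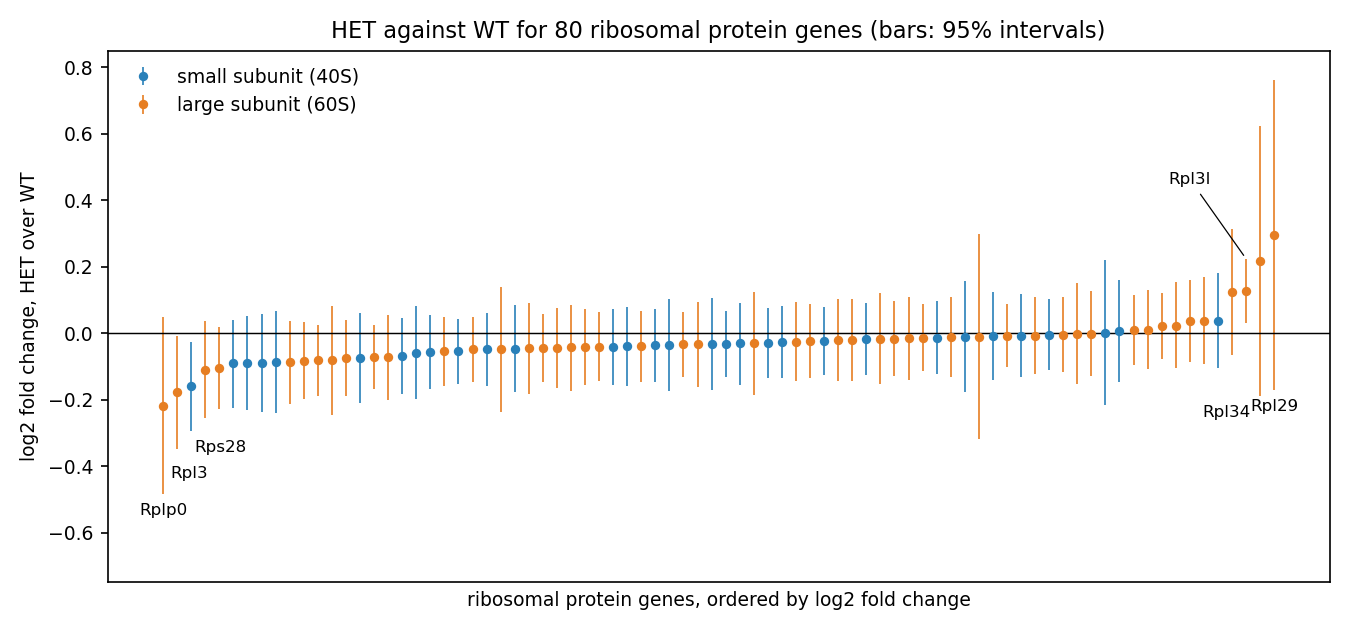
Log2 fold change of HET over WT (vertical axis) for the 80 tested ribosomal protein genes in order of the value (horizontal axis), with 95% intervals from edgeR and colours for the subunits. Most points lie just below 0 with intervals that cross it, and Rpl29 and Rpl34 have the widest intervals of the named genes.

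The members varied together from library to library, and each group held a library in which most of them were low. Each library's level was taken as the median, over 80 members, of the deviation of log2 CPM from the gene's average, and was 0.01, 0.02, -0.07 and -0.03 in HET replicates 1 to 4 and -0.07, 0.08, 0.04 and 0.03 in WT replicates 1 to 4. HET replicate 3 and WT replicate 1 were thus the lowest libraries of their groups, and WT replicate 2 was the highest of all. The levels also separated by title digits. In the first title set (HET replicates 1, 3 and 4 and WT replicate 1) they were -0.074 to 0.014. In the other 4 libraries they were 0.023 to 0.075. In WT replicate 2, 72 of 80 members lay above their own mean and 41 had their highest level. In WT replicate 1, 7 lay above their mean and 34 had their lowest level, and in HET replicate 3 these numbers were 9 and 27. The same values over other abundant genes are not given here, so whether such shifts are particular to the members was not tested. All members together held 0.935%, 0.950%, 0.893% and 0.930% of the counts in the HET libraries and 0.911%, 0.988%, 1.01% and 0.994% in the WT libraries. These shares were 0.927% ± 0.024 in HET and 0.977% ± 0.045 in WT (SD, n = 4 each), and they overlapped because WT replicate 1 lay below 3 of the HET libraries. By title digits they did not overlap, at 0.893% to 0.935% in the first title set and 0.950% to 1.01% in the other libraries. That first set holds 3 HET libraries and 1 WT library. The parts of genotype and title digits in these shares were not tested. The share of mitochondrially encoded transcripts, which lowers the share of all others, was 17.1% to 19.1% in HET and 14.7% to 19.1% in WT, and its part in the shares of the members was not tested. Without mitochondrially encoded transcripts the members held 1.09% to 1.17% in HET and 1.11% to 1.22% in WT.

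**Figure D2:**
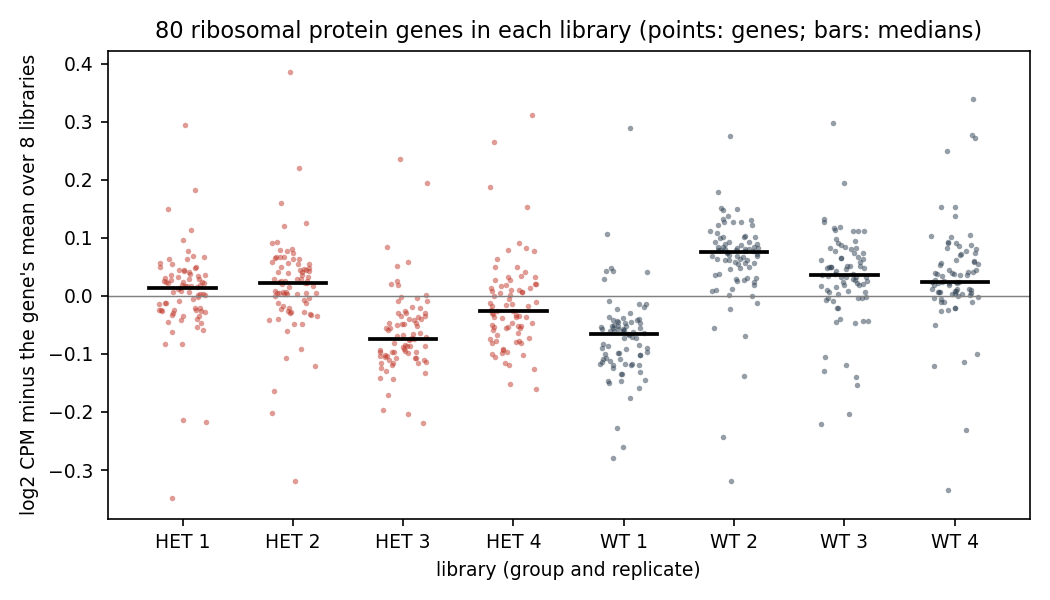
Log2 CPM of each of the 80 tested ribosomal protein genes minus its mean over the 8 libraries (vertical axis, points) in each library (horizontal axis, HET in red and WT in dark), with black bars for the medians. The cloud sits low in HET replicate 3 (median -0.07) and WT replicate 1 (-0.07) and high in WT replicate 2 (0.08).

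Rpl3 and its muscle paralogue Rpl3l had group means that differed in opposite directions. Rpl3 (ENSMUSG00000060036; chromosome 15, 80077791 to 80091868, minus strand, GRCm38), a core protein of the 60S subunit near the peptidyl transferase centre, stood at 65.95, 68.2, 64.7 and 64.5 CPM in HET and at 69.4, 68.7, 71.5 and 88.35 CPM in WT. The groups did not overlap, by a gap of less than 1 CPM, and WT replicate 4 stood far above the other 3 WT libraries. The HET mean was 65.8 ± 1.7 CPM and the WT mean 74.5 ± 9.3 CPM (SD, n = 4 each), with a log2 fold change of -0.18 (SE 0.077, unadjusted p = 0.0418, adjusted p = 0.77 by the edgeR quasi-likelihood test, Benjamini-Hochberg adjusted). Without WT replicate 4 the log2 fold change was -0.09, and over 18 alternatives the adjusted p ran from 0.563 to 0.994.

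Rpl3l (ENSMUSG00000002500; chromosome 17, 24727820 to 24736143, plus strand) stood at 307.9, 314.1, 308.3 and 313.9 CPM in HET and at 277.8, 297.4, 288.6 and 275.0 CPM in WT. The HET libraries were close to each other and all above the WT libraries. The HET mean was 311.1 ± 3.4 CPM and the WT mean 284.7 ± 10.3 CPM, with a log2 fold change of 0.13 (SE 0.044, unadjusted p = 0.0140, adjusted p = 0.77 by the edgeR quasi-likelihood test). Over 18 alternatives it was 0.09 to 0.16, with an adjusted p of 0.251 (DESeq2) to 0.994. The summed level of 6 cardiomyocyte markers also did not overlap between the groups, at 66080 to 69820 CPM in HET and 61480 to 65730 CPM in WT. Most of that sum was Myh6, with means of 36580 CPM in HET and 33580 CPM in WT. Taken singly, only Myh6 among the 6 markers had groups without overlap. Of these 6 markers 5 had a positive log2 fold change (median 0.09), and their part in the value of Rpl3l was not tested. In whole tissue, more cells of a type and more RNA per cell cannot be told apart.

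Reads of Rpl3l outnumbered those of Rpl3 4.67, 4.60, 4.77 and 4.87 to 1 in the HET libraries and 4.003, 4.33, 4.03 and 3.11 to 1 in the WT libraries. All 4 HET ratios lay above all 4 WT ratios, and WT replicate 4 was the lowest. The mean log2 ratio was higher in HET by 0.30 (exact two-sided permutation test, p = 0.0286, the smallest that 4 against 4 can give; 0.143 after Benjamini-Hochberg adjustment over the 5 paralogue pairs). The adjusted value missed the threshold, but it could not have met it unless other pairs had also reached that smallest p. Without WT replicate 4 the difference was 0.20. Since this pair was taken up with its fold changes known, the unadjusted p is no independent evidence. The difference was 0.25 within the first title set and 0.38 within the second, each resting on a group of 1 library. The second set holds WT replicate 4. The 2 transcripts are of similar length, and per length Rpl3l made up 81.9% to 82.7% of the pair in HET and 75.4% to 81.0% in WT.

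**Figure D3:**
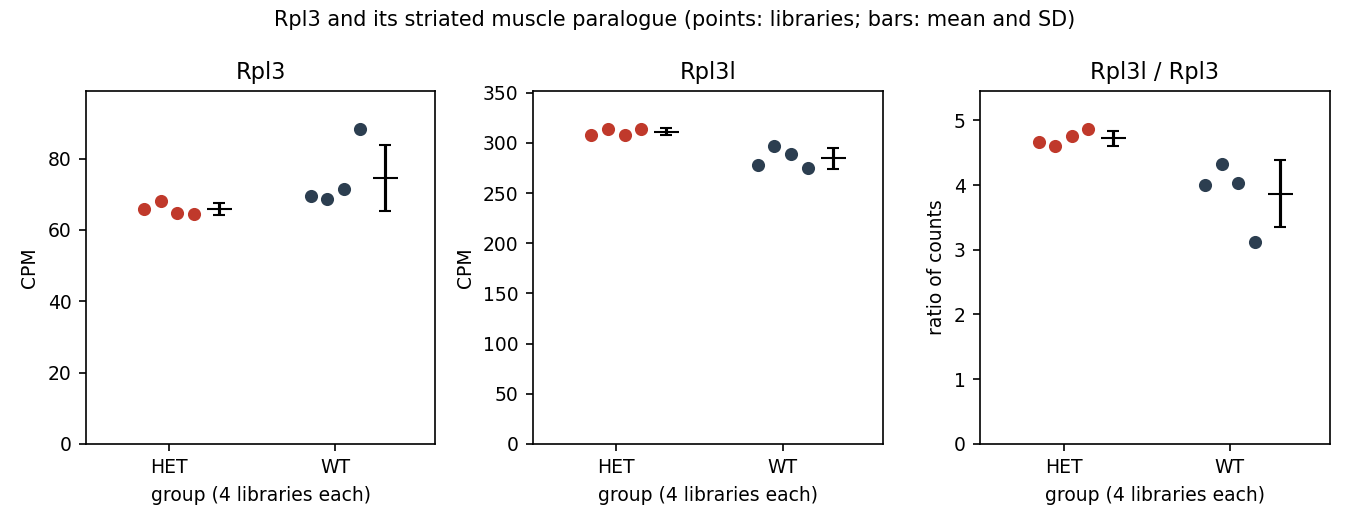
CPM of Rpl3 and of Rpl3l and the ratio of their counts (vertical axes from 0), with a point for each of the 4 libraries of HET (red) and WT (dark) and black bars for mean and SD. Every HET library lies below the WT libraries for Rpl3 and above them for Rpl3l and the ratio, with WT replicate 4 apart at 88.35 CPM for Rpl3.

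The other 4 paralogue pairs tested had smaller differences in all 8 libraries, but without WT replicate 4 Rpl22l1 to Rpl22 had the larger one (0.27 against 0.20). Rpl22l1, a close relative of Rpl22 that can replace it in the 60S subunit, was at 11.9, 13.2, 12.02 and 12.35 CPM in HET and at 9.73, 11.4, 11.8 and 12.5 CPM in WT, so the groups overlapped. Its log2 fold change was 0.12 (95% interval -0.07 to 0.31) and that of Rpl22 was -0.07 (interval -0.17 to 0.02). The log2 ratio of Rpl22l1 to Rpl22 differed by 0.20 (exact permutation test, p = 0.114, adjusted 0.286), and by 0.13 without WT replicate 1, where Rpl22l1 was lowest. The differences of the log2 ratios were 0.01 for Rpl7l1 to Rpl7, -0.01 for Rpl36al to Rpl36a and -0.02 for Rps27l to Rps27 (exact permutation tests, adjusted p = 0.971 each). Rpl7l1 (0.04, interval -0.09 to 0.16) and Rpl7 (0.02, interval -0.08 to 0.12) had log2 fold changes near 0. Rpl36al had -0.08 (interval -0.25 to 0.08) and Rpl36a -0.07 (interval -0.20 to 0.06). Rps27l had -0.06 (interval -0.20 to 0.08) and Rps27 -0.04 (interval -0.15 to 0.07). A p above the threshold does not show that these pairs kept their proportions. The testis paralogues were near absent. Rpl10l had 4 reads in HET replicate 3 and 0 in each other library, and Rpl39l was at 0.0725 to 0.192 CPM, so neither was tested. Their partners had log2 fold changes of 0.04 (Rpl10, interval -0.09 to 0.17) and -0.03 (Rpl39, interval -0.19 to 0.13).

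Rps28 (ENSMUSG00000067288; chromosome 17, 33819027 to 33824562, minus strand), a small protein of the 40S subunit near the messenger RNA exit, was the third member with an unadjusted p under 0.05. It stood at 34.5, 31.2, 30.15 and 32.7 CPM in HET and at 33.05, 36.2, 36.6 and 37.7 CPM in WT. HET replicate 1 lay above WT replicate 1, so the groups overlapped. The HET mean was 32.1 ± 1.9 CPM and the WT mean 35.9 ± 2.0 CPM (SD, n = 4 each), with a log2 fold change of -0.16 (SE 0.061, unadjusted p = 0.0245, adjusted p = 0.77 by the edgeR quasi-likelihood test). It was -0.13 to -0.20 over 18 alternatives. By edgeR no member was lower at an unadjusted p under 0.05 without HET replicate 3 or without WT replicate 4. The same held with the title digits as covariate. Under every other alternative at least 2 members were lower at that p. Within the first title set the difference was -0.03 and within the second -0.25, each resting on a group of 1 library.

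The level of a member per transcript length, averaged over the 8 libraries, covered a wide range, with a median of 105.8 CPM per kilobase of the principal transcript over the 80 tested members. Rplp1, an acidic protein of the stalk that recruits elongation factors, was highest at 654.2 CPM per kilobase. Rps29 (492.6), Rps15 (429.3) and Rps2 (304.8), all of the 40S subunit, followed on that scale. The lowest tested members were Rps20 (27.2 CPM per kilobase), Rpl22l1 (21.5), Rps15a (17.9), Rpl7l1 (16.5) and Rpl36al (10.4). For Rps20 and Rps15a the chosen transcripts were long, at 3706 and 5179 bases. Before division by length their HET means were 99.5 and 92.1 CPM. Those of Rpl22l1, Rpl7l1 and Rpl36al were 12.4, 43.6 and 12.9 CPM. Rpl3l (216.6) ranked 14 of 82 and Rpl3 (51.9) ranked 67. The order depends on the transcript chosen, since over the length of all annotated exons Rps29 was at 277.2 and Rps2 at 182.2 CPM per kilobase. None of these genes passed the test. The log2 fold changes were -0.05 for Rplp1 (95% interval -0.24 to 0.14), -0.03 for Rps29 (-0.16 to 0.09), -0.05 for Rps15 (-0.16 to 0.06) and 0.00 for Rps2 (-0.22 to 0.22). They were -0.04 for Rps20 (-0.17 to 0.10) and -0.01 for Rps15a (-0.12 to 0.10).

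**Figure D4:**
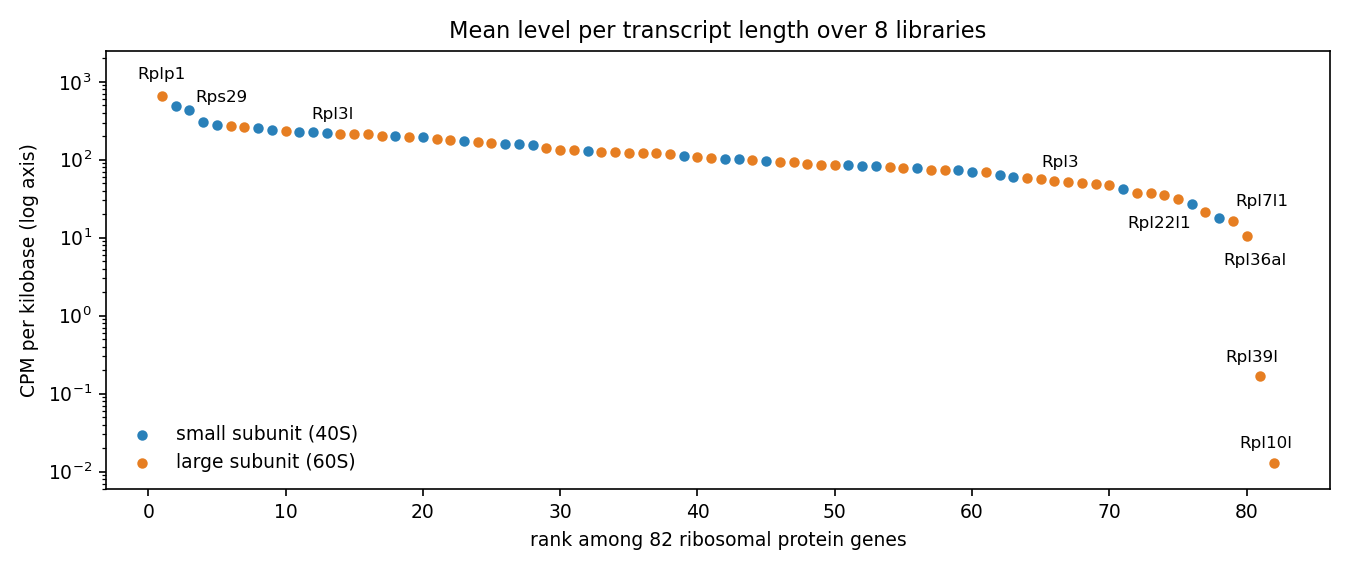
Mean level over the 8 libraries in CPM per kilobase of principal transcript (vertical axis, log scale) against the rank among the 82 members (horizontal axis), with colours for the subunits. Most members lie within 10 and 300 CPM per kilobase, Rplp1 is highest at 654.2, and the testis paralogues Rpl39l and Rpl10l lie far below.

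The members differed in how much they varied between libraries. The median coefficient of variation of CPM over the 8 libraries was 4.93%, where counting alone would give a median of 1.66%, and Rpl4 had the lowest at 2.45%. Over 9% stood 7 members, Rpl29, Rpl34, Rplp0, Rpl30, Rpl3, Rps2 and Rplp1, and several of these, chosen after their values were seen, fell into separate levels that cut across genotype. Rpl29, a small protein of the 60S subunit, was at 32.0, 53.2, 47.9 and 50.5 CPM in HET and at 49.75, 32.6, 34.9 and 32.3 CPM in WT. HET replicates 2, 3 and 4 and WT replicate 1 were high, the other 4 libraries were low, and the nearest values on either side of the gap differed 1.37-fold. Its log2 fold change of 0.30 (95% interval -0.17 to 0.76) was 0.47 without WT replicate 1 and 0.43 without HET replicate 1.

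Rpl34, another protein of the 60S subunit, was at 78.6, 51.4, 73.4 and 77.05 CPM in HET and at 53.55, 54.2, 78.8 and 54.6 CPM in WT. Here HET replicates 1, 3 and 4 and WT replicate 3 were high, with a 1.34-fold gap to the others. Its log2 fold change of 0.22 (interval -0.19 to 0.63) was 0.37 without WT replicate 3, 0.34 without HET replicate 2 and 0.09 with the title digits as covariate. Rpl30 was at 44.1, 59.8, 44.1 and 58.5 CPM in HET and at 53.1, 46.6, 46.1 and 62.0 CPM in WT, for a log2 fold change of -0.01 (interval -0.32 to 0.30). In it HET replicates 2 and 4 and WT replicates 1 and 4 were high, so the libraries of high level differed from gene to gene.

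The 3 proteins of the ribosomal stalk were also not called. Rplp0, the stalk's base, was at 308.5, 319.6, 310.8 and 398.0 CPM in HET and at 385.3, 433.4, 310.7 and 425.3 CPM in WT. The groups overlapped, since HET replicate 4 lay among the high WT libraries and WT replicate 3 among the low HET libraries. The log2 fold change was -0.22 (SE 0.118, adjusted p = 0.77 by the edgeR quasi-likelihood test), and it was -0.31 without WT replicate 3 and -0.31 without HET replicate 4. Rplp1 was at 369.0, 322.4, 294.6 and 297.9 CPM in HET and at 296.3, 329.6, 372.2 and 329.6 CPM in WT, highest in HET replicate 1 and WT replicate 3. Rplp2 was at 169.6 to 173.8 CPM in HET and 153.6 to 186.2 CPM in WT, for a log2 fold change of 0.02 (interval -0.11 to 0.15).

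Ribosomal protein genes have many processed pseudogenes, copies of their messenger RNA inserted elsewhere in the genome, and reads of a gene and of a near-identical copy can be hard to assign. At an identity of at least 90% over at least 80% of the pseudogene transcript, 657 annotated pseudogenes matched 76 of the 82 members, and 497 of these had a read in at least 1 library. Together they held 1.03% to 1.76% as many counts as the members. Rpl3l, Rpl4 and Rpl8 were among the 6 members with no such copy. Several copies were counted in some libraries and nearly absent in others. Gm8730, a copy of Rplp0 (chromosome 8, 102864845 to 102865798, minus strand, identity 98.7%), had 783, 692, 845 and 29 counts in HET and 31, 26, 871 and 33 in WT. It was high in HET replicates 1, 2 and 3 and WT replicate 3, the libraries in which Rplp0 was low. Gm9625 (97.4%), a further copy, was high in the same 4 libraries, at 355 to 373 counts against 50 to 67 in the other 4. When the counts of all copies were added to their members, an alternative chosen after the counts were seen, the log2 fold change of Rplp0 became -0.15.

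Gm11942, a copy of Rplp1 (chromosome 4, 32964888 to 32965232, plus strand, identity 97.4%), had 640, 2, 4 and 8 counts in HET and 3, 6, 771 and 7 in WT. It was thus present in HET replicate 1 and WT replicate 3, where Rplp1 was highest. Rps13-ps1, a copy of Rps13 (99.6%), had 445 counts in HET replicate 4, 555 in WT replicate 3 and 0 or 1 in each other library. Rps13 itself was lowest in those 2 libraries, at 98.15 and 92.3 CPM against 99.1 to 112.8 CPM in the other 6, and its log2 fold change was 0.04. Rpl3-ps1, a copy of Rpl3 (99.8%), had 4, 3, 73 and 64 counts in HET and 68, 58, 73 and 6 in WT, few beside the counts of Rpl3. It was low in WT replicate 4, the library in which Rpl3 was highest. Its counts were also low in HET replicates 1 and 2, where Rpl3 was at 65.95 and 68.2 CPM. Adding all copies of Rpl3 left the log2 fold change of Rpl3 at -0.18. By contrast Gm2830, a copy of Rps24 (96.0%), had 1058 to 1408 counts in every library. Rpl29, Rpl34 and Rpl30 had at most 30 counts over all their copies in any library. The labels do not say whether copies differ between the mice, and the part of the copies in these levels was not tested.

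The next stretches show how close the copies of Rplp0 and Rplp1 are, since such reads differ at few bases. They are windows of 80 bases read from GRCm38 in the direction of the transcript, and the capitals mark the bases that differ between gene and copy. Each was chosen as the window within an exon that holds the most differing bases, so gene and copy are more alike elsewhere on average. The Rplp0 window lies in exon 4 of 7 (chr5:115561148-115561227, plus strand) and its match in Gm8730 (chr8:102865352-102865431, minus strand). The Rplp1 window lies in exon 3 of 3 (chr9:61913411-61913490, minus strand) and its match in Gm11942 (chr4:32965066-32965145, plus strand).
Rplp0: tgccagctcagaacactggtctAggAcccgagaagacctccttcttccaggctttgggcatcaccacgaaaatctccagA
Gm8730: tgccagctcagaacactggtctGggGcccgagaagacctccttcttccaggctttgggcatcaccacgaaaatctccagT
Rplp1: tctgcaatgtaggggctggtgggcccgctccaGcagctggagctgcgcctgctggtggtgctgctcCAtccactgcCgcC
Gm11942: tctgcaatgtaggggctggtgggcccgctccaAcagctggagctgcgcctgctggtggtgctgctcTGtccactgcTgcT
The windows hold 3 and 5 differing bases, out of 12 over 954 aligned bases for Gm8730 and 9 over 345 for Gm11942.

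**Figure D5:**
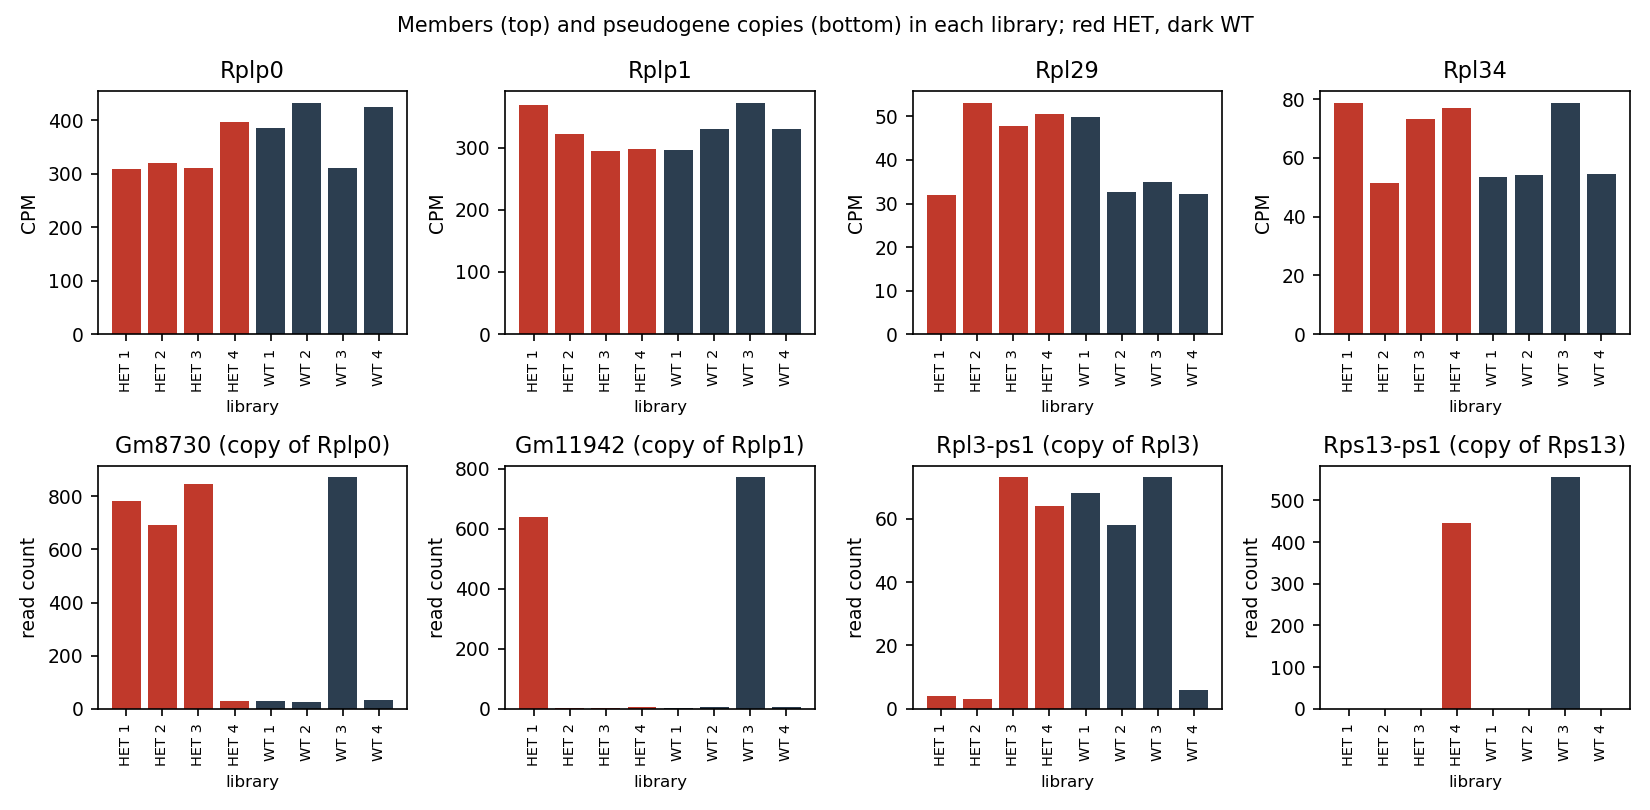
Members in CPM (upper row, vertical axes from 0) and pseudogene copies in read counts (lower row) in each of the 8 libraries (horizontal axes, HET in red and WT in dark). Rplp0 is low where its copy Gm8730 is high, Rplp1 is high where its copy Gm11942 is present, and the high and low libraries cut across genotype in every panel.

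Of genes of ribosomal or ribosome-bound proteins with other symbols, which the rule leaves out, 5 were examined, and none was called. Rpl24 has a symbol that fits the rule but is not among the 82 members, and the reason was not examined. Rack1, a scaffold protein of the 40S subunit, had a log2 fold change of -0.06 (SE 0.045), and Fau, whose product is cleaved to a 40S protein, had -0.07 (SE 0.046). Rps3a1, a 40S protein, was at 139.7, 86.3, 127.8 and 138.8 CPM in HET and at 84.4, 89.4, 141.2 and 87.8 CPM in WT. It was high in HET replicates 1, 3 and 4 and WT replicate 3, the libraries in which Rpl34 was high, and both genes lie on chromosome 3 (Rps3a1 at 86137940 to 86142702, Rpl34 at 130726831 to 130730398). The pseudogene Rps3a3 on chromosome 13 had 8, 925, 14 and 10 counts in HET and 1217, 1166, 9 and 1220 in WT, and was thus high in the 4 libraries in which Rps3a1 was low.

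Genes that make ribosomes or control their proteins' translation did not pass the test either, with 0 of each list called lower or higher by edgeR. Of 20 translation elongation and other TOP messenger RNA genes 9 were negative (median 0.02), with Eef1a1, the factor that brings aminoacyl-tRNA, at -0.09 (SE 0.044; 342.7 to 373.8 CPM in HET and 378.9 to 391.6 CPM in WT, without overlap) and Naca, of the nascent chain-associated complex, at 0.15 (SE 0.079). Of 30 ribosome biogenesis genes 18 were negative (median -0.02), with Nop16 at -0.15 (SE 0.075) and Rrs1, needed for assembly of the 60S subunit, at -0.16 (SE 0.103). Of 15 genes of RNA polymerase I, which transcribes ribosomal RNA, and its factors 6 were negative (median 0.03), with the initiation factor Rrn3 at 0.10 (SE 0.054) and the catalytic subunit Polr1a at 0.11 (SE 0.061). Of 21 genes of mTORC1 and TOP regulation 5 were negative (median 0.07). In that list Sesn1, a stress-induced inhibitor of mTORC1, had 0.19 (SE 0.049, adjusted p = 0.77 by the edgeR quasi-likelihood test), at 137.8 to 147.2 CPM in HET and 116.3 to 128.5 CPM in WT, without overlap. Mlst8, a subunit of mTORC1 chosen after its values were seen, also had no overlap, with a lower HET mean (log2 fold change -0.07, SE 0.053) and a gap too small to show in the rounded levels (17.57 CPM on both sides). Groups without overlap made up 1.70% of all genes in the higher and 2.08% in the lower direction. Rragd, a GTPase that brings mTORC1 to the lysosome, had 0.21 (SE 0.075), with overlapping groups.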

How the data were processed

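Poly(A) RNA of 8 ventricle samples was sequenced with a stranded kit, per the labels. The deposited values are whole read counts per Ensembl gene. STAR 2.4.2a, HTSeq 0.6.1 and GRCm38 are named in the submitters' processing notes, and the annotation release and strand setting are not given in the sources used here. Symbols were matched by identifier (36345 of 38293 rows), and positions came from GENCODE release M21. The groups were compared by edgeR 4.0.16 under R 4.3.3 (filterByExpr, TMM scaling, which uses a trimmed mean of M values, robust quasi-likelihood test, Benjamini-Hochberg adjustment over 14567 genes), and the procedure was tested on simulated data. Group means are given with SD. Paralogue ratios used counts plus 0.5 and exact permutation tests. Pseudogene copies were found with blastn 2.17.0. Promoter sequence came from RefSeq. The members, gene lists and alternatives were chosen with earlier results of these data known. Genes were named if they were Rpl3, Rpl3l or Rps28, a member of a paralogue pair, at either end of the level order (1 such gene is not reported here), or of smallest p in another list; Rpl29, Rpl34, Rplp0, Rpl30 and the pseudogenes were chosen after their values were seen, as were the other genes named. DESeq2 1.42.0 and limma-voom 3.58.1 were alternatives.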

Additional observations from a re-analysis of the deposited data

Results flagged for a closer look

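In 4 of 48 groups of 4 libraries examined, 1 library stood far from the other 3 (by Dixon's ratio). Chance flags about 1 in 20, but Rpl29, Rpl34 and Rplp0 were examined because their libraries fell into separate levels, so the number of flags cannot be read against that rate. Rpl3 was at 88.35 CPM in WT replicate 4 and at 68.7 to 71.5 CPM in the other WT libraries. Rpl29 was at 49.75 CPM in WT replicate 1 and at 32.3 to 34.9 CPM in the others. Rpl34 was at 78.8 CPM in WT replicate 3 and at 53.55 to 54.6 CPM in the others. Rplp0 was at 398 CPM in HET replicate 4 and at 308.5 to 319.6 CPM in the other HET libraries.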

How the results depend on the processing

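Each gene's result was recomputed under 18 alternatives, and no member was called under any of them. With the title digits as covariate the median of the members was 0.012, 24 were negative, and these log2 fold changes took the other sign: Rpl39 0.048, Rplp1 0.002, Rps29 0.042, Rps15 0.003, Rps20 0.054, Rps15a 0.047 and Rpl30 0.005. With library sizes left unscaled, where the median of all genes went from -0.004 to -0.047, Rpl7l1 had -0.006, Rpl7 -0.021, Rpl10 -0.005 and Rps2 -0.042. Rps2 also had 0 with TMM computed without ribosomal protein genes, -0.004 with the stricter filter and -0.034 with limma-voom. When each library was left out in turn, the ranges that crossed 0 were Rpl30 -0.087 to 0.086, Rps2 -0.067 to 0.104, Rpl7 -0.001 to 0.034, Rpl39 -0.075 to 0.017, Rps15a -0.046 to 0.011 and Rplp1 -0.122 to 0.009. For the log2 ratios they were Rpl7l1 to Rpl7 -0.026 to 0.067, Rpl36al to Rpl36a -0.069 to 0.059 and Rps27l to Rps27 -0.087 to 0.008. No paired analysis was possible because the replicate numbers follow accession order and pair nothing. In all 35 values took the other sign and 522 kept their direction and side of the threshold.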
